A study of Homo sapiens with 6 samples.

Results

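The regions described here are the SMARCA4 binding regions of K562 cells that lie far from every coding gene start. A region of the deposited list, called a peak below, was counted as far when its midpoint lay more than 100 kb from the start of every protein-coding transcript in the GENCODE annotation of hg19. The list holds 28265 peaks, and 2008 of them met this rule, a share of 7.10% (95% Wilson interval 6.81 to 7.41%). Distance to coding starts was the only property used to choose them, so their distances are a description. The rule also limits which coding genes can flank or hold a far peak. Starts of lncRNA genes, width, base composition and motifs were not part of the choice.

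The study mapped SMARCA4, the catalytic ATPase also known as BRG1, by chromatin immunoprecipitation and sequencing (ChIP-seq) in K562, an established line from chronic myeloid leukaemia with erythroid and megakaryocytic traits. It comprised 3 SMARCA4 ChIP libraries and 3 input libraries, all from K562 with no treatment named in the labels, and set SMARCA4 sites beside G-quadruplex (G4) structures. Fixation took 30 min in 2 mM disuccinimidyl glutarate (DSG) followed by 10 min in 1% formaldehyde, and chromatin was sheared to fragments of 150 to 400 bp. The labels call the ChIP replicates technical and speak of a single input, the published paper calls them biological, and the list pools them, since a region had to be found in at least 2 of 3 replicates.

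SMARCA4 is an engine of the SWI/SNF (BAF) remodelers, which use ATP to slide or evict nucleosomes and so expose DNA to other factors. These complexes sit at promoters and also at enhancers, short regulatory elements that can act on a gene over long distances and that often lie in introns or in gene-poor stretches between genes. In erythroid cells many enhancers carry sites for GATA factors, often beside an E-box bound by the TAL1 complex, while AP-1 (FOS and JUN dimers) marks active distal elements in many cell types.

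The cell label was checked at the starts of lineage genes. Of 10 genes that define the erythroid and megakaryocytic character of the line, 9 had a peak within 1 kb of a coding start, among them the factors GATA1, TAL1, KLF1, NFE2 and GFI1B. The exception was LMO2, a bridging protein of the TAL1 complex, whose nearest peak lay 1.09 kb away. Of 10 genes of B and T lymphocytes, 1 had such a peak, TCF7, a factor of T cells. Over all coding genes the share was 46.4% (45.7 to 47.1%). A peak is not expression, and no marker of either list flanked an interval with a far peak.

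The sequences of 6 far peaks show what the later counts are made of. Each is 200 bases of the hg19 plus strand, 5′ to 3′, in lower case. The named motif, on either strand, is in capitals at matches that do not overlap each other. They were picked by rule: the widest far peak, the farthest, and the widest that carry GATA with AP-1, a GATA site with an E-box part, a CTCF core and a G4 motif. The widest, chr18:3602597-3606389, is 3793 bp long and lies in an intron of DLGAP1, and its central bases chr18:3604393-3604592 hold a GATA motif. The farthest, chr5:104928729-104929004, lies between NUDT12 and EFNA5, and its central bases chr5:104928767-104928966 hold 2 GATA motifs. The peak with GATA and AP-1, chr19:29096434-29097908, is shown by its central bases chr19:29097071-29097270. The peak with the GATA and E-box pair, chr1:235011614-235012859, is shown by chr1:235012137-235012336, and there the pair reads from the minus strand. The peak with the CTCF core, chr1:59364368-59365414, is shown by chr1:59364791-59364990. The peak with the G4 motif, chr18:3593224-3596442, is shown by chr18:3594235-3594434, where runs of C on the plus strand are runs of G on the other.
widest: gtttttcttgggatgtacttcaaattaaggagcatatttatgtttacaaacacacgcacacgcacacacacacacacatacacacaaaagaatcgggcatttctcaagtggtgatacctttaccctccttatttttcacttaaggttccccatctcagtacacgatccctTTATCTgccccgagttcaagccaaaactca
farthest: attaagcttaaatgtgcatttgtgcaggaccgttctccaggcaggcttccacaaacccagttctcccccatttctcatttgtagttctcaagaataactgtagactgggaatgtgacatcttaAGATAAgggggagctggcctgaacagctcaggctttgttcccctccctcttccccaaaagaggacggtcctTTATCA
GATA_AP1: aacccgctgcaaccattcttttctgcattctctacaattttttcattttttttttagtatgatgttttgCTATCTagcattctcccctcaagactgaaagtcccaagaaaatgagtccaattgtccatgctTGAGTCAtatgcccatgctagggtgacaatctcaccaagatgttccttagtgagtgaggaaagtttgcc
GATA_Ebox: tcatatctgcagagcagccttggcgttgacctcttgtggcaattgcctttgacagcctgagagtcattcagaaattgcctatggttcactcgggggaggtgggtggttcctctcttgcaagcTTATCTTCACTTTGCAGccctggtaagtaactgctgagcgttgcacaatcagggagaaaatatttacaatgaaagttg
CTCF_core: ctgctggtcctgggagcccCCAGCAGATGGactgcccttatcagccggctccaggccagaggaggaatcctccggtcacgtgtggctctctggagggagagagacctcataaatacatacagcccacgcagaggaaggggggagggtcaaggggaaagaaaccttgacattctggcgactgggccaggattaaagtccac
G4_motif: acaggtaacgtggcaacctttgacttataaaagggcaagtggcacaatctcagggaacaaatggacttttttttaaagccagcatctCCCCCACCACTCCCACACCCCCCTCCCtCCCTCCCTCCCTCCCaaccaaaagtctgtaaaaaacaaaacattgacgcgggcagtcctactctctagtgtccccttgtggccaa

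SMARCA4 peaks became sparse with distance from coding genes but did not vanish. The genome more than 100 kb from every coding start measured 1100.7 Mb without assembly gaps, 38.5% of the whole, and held 1.82 peaks per Mb (exact Poisson 95% interval 1.75 to 1.91). The genome 10 to 100 kb away held 6.92 per Mb (6.78 to 7.07), with 8699 peaks. The fall went on within the far genome. Between 100 and 200 kb there were 1226 peaks at 3.22 per Mb (3.05 to 3.41). Between 200 and 500 kb there were 559 at 1.33 per Mb (1.22 to 1.44), and beyond 500 kb 223 at 0.746 per Mb (0.651 to 0.851). Density was lower in each farther class, which describes the property used to choose the peaks and is no test. The median far peak lay 166306 bp from its nearest coding start (162991 to 172214 bp). All intervals given here account for counting error alone, because peaks of 1 list are no replicates of an experiment. The list gives no value per replicate, so no spread between replicates can be shown.

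**Figure D1:**
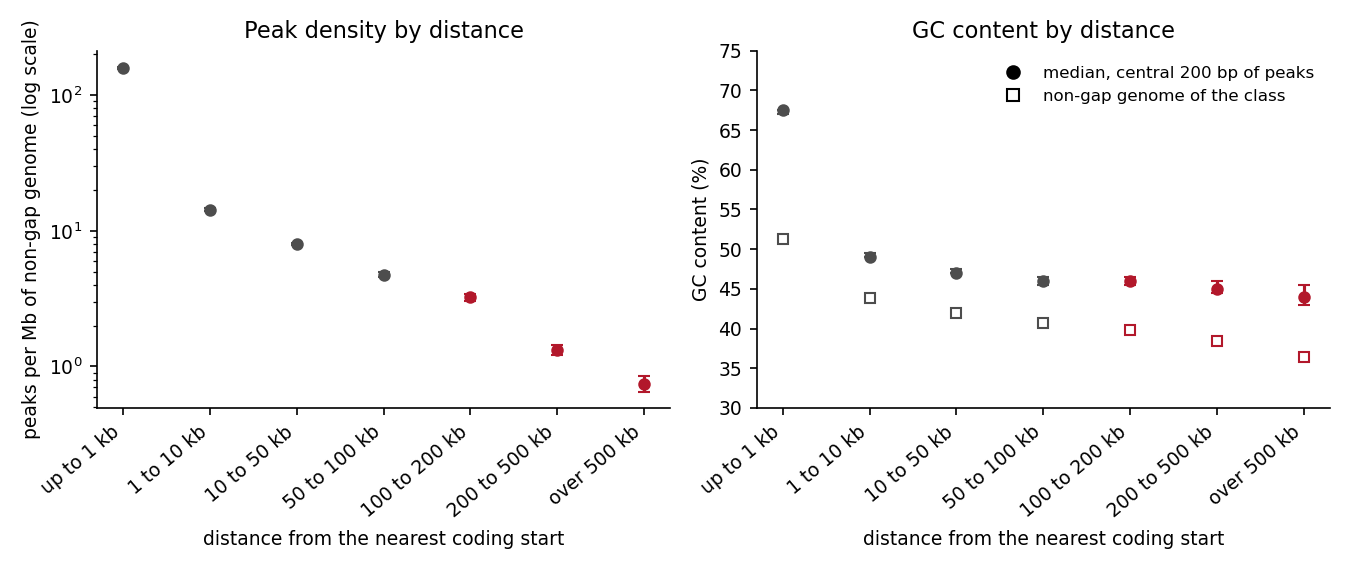
Left, peaks per Mb of non-gap genome (log scale) by distance from the nearest coding start, with exact Poisson 95% intervals; right, median GC of the central 200 bp of peaks with 95% intervals (filled) and GC of the non-gap genome of the same class (open). Far classes are in red: density fell to 0.746 per Mb beyond 500 kb, while peak GC stayed above that of the genome around it.

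Far peaks were spread over the chromosomes unevenly, and chromosome 6 stood out by number. It held 249 far peaks, 12.4% of all, on 6.22% of the far genome, which is 3.64 per Mb (3.20 to 4.12). Of these, 92 lay in its 4 leading intervals. By density, chromosome 17 led the autosomes with 4.64 per Mb (3.57 to 5.94), followed by chromosome 19 with 3.76 (2.19 to 6.02), chromosome 6 and chromosome 12 with 3.01 (2.50 to 3.58). The lowest autosome was chromosome 13 with 0.898 per Mb (0.662 to 1.19). A cell line with rearranged chromosomes does not carry equal copies of every region, and the part of copy number in these densities was not tested.

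The flanking genes were read from the intervals between neighbouring coding starts. An interval has to be longer than 200 kb to hold far genome at its centre, and 2933 intervals were. Of these, 705 (24.0%, 22.5 to 25.6%) held at least 1 far peak. The share rose with length, from 18.6% of intervals of 200 to 500 kb (16.97 to 20.4%) to 31.6% at 500 to 1000 kb (27.96 to 35.4%) and 38.9% beyond 1000 kb (34.3 to 43.8%). Most gene deserts thus held no SMARCA4 peak beyond 100 kb at all. With the stretches beyond the last start of a chromosome, 712 intervals held a far peak: 318 held 1, 286 held 2 to 4, 79 held 5 to 9 and 29 held 10 or more. Those 29 intervals took 419 far peaks (20.9%, 19.1 to 22.7%), and the 10 leading ones took 200 (9.96%, 8.73 to 11.3%).

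The 10 leading intervals lie beside genes of several kinds, and a pair of them form a block on the short arm of chromosome 6 that is known for its histone and tRNA gene clusters. SCAND3 to TRIM27, the latter a RING-type ubiquitin ligase, held 30 far peaks in 311 kb, or 96.5 per Mb. ZNF184 to the histone gene H2BC13 held 22 in 335 kb, or 65.7 per Mb. These are the shortest of the 10 intervals and the most densely filled, and GATA motifs were in 9 of the 30 and in 5 of the 22 peaks. Over all far peaks GATA was in 66.7% and AP-1 in 19.97%, and all counts of these motifs by gene or interval stand beside those shares. CD83, a surface protein of dendritic cells and other leukocytes, and JARID2, a partner of Polycomb repressive complex 2, flanked 25 far peaks in 1128 kb, of which 13 held GATA. CITED2, a coactivator-binding regulator, and the connexin gene GJE1 flanked 15 in 2758 kb, and 13 of those held GATA.

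Outside chromosome 6, the interval with most far peaks was that between the proto-oncogene MYC and the gasdermin gene GSDMC. It held 26 in 2039.8 kb, and 18 of them had a GATA motif and 6 an AP-1 motif. They fell into a group nearer MYC and a group nearer GSDMC, with a long bare stretch between them. In this interval 8 far peaks lay within 1 kb of a lncRNA start. Chosen after their values were seen, these starts belong to PVT1 (4 peaks), CCDC26 (3 peaks) and LINC00824. LPIN1, which makes diacylglycerol from phosphatidate, and the pseudokinase gene TRIB2 flanked 18 far peaks in 930 kb, 14 of them with GATA. MIR3681HG, a lncRNA in this interval and likewise chosen after its values were seen, had 3 far peaks at its starts. Between PROK2, which encodes a secreted prokineticin, and RYBP, a subunit of Polycomb repressive complex 1, lay 15 in 661 kb. ZNF254 and UQCRFS1, the Rieske protein of respiratory complex III, flank the centromere of chromosome 19: their interval of 5434 kb includes 3100 kb of assembly gap, and its 15 far peaks all lay on the UQCRFS1 side.

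In a further pair of leading intervals all far peaks lay inside long neuronal genes. TGIF1, a homeobox repressor, and the nearest start of DLGAP1, a scaffold of the postsynaptic density, bound 390 kb with 17 far peaks, all within the body of DLGAP1. These covered 16833 bp, the most of any leading interval, since 4 of them were the widest of all far peaks. A stretch of 864 kb between separate starts of ASIC2, an acid-sensing ion channel, held 17 far peaks, 15 of them with GATA. The plot of far peaks along these intervals shows how differently they were arranged.

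**Figure D2:**
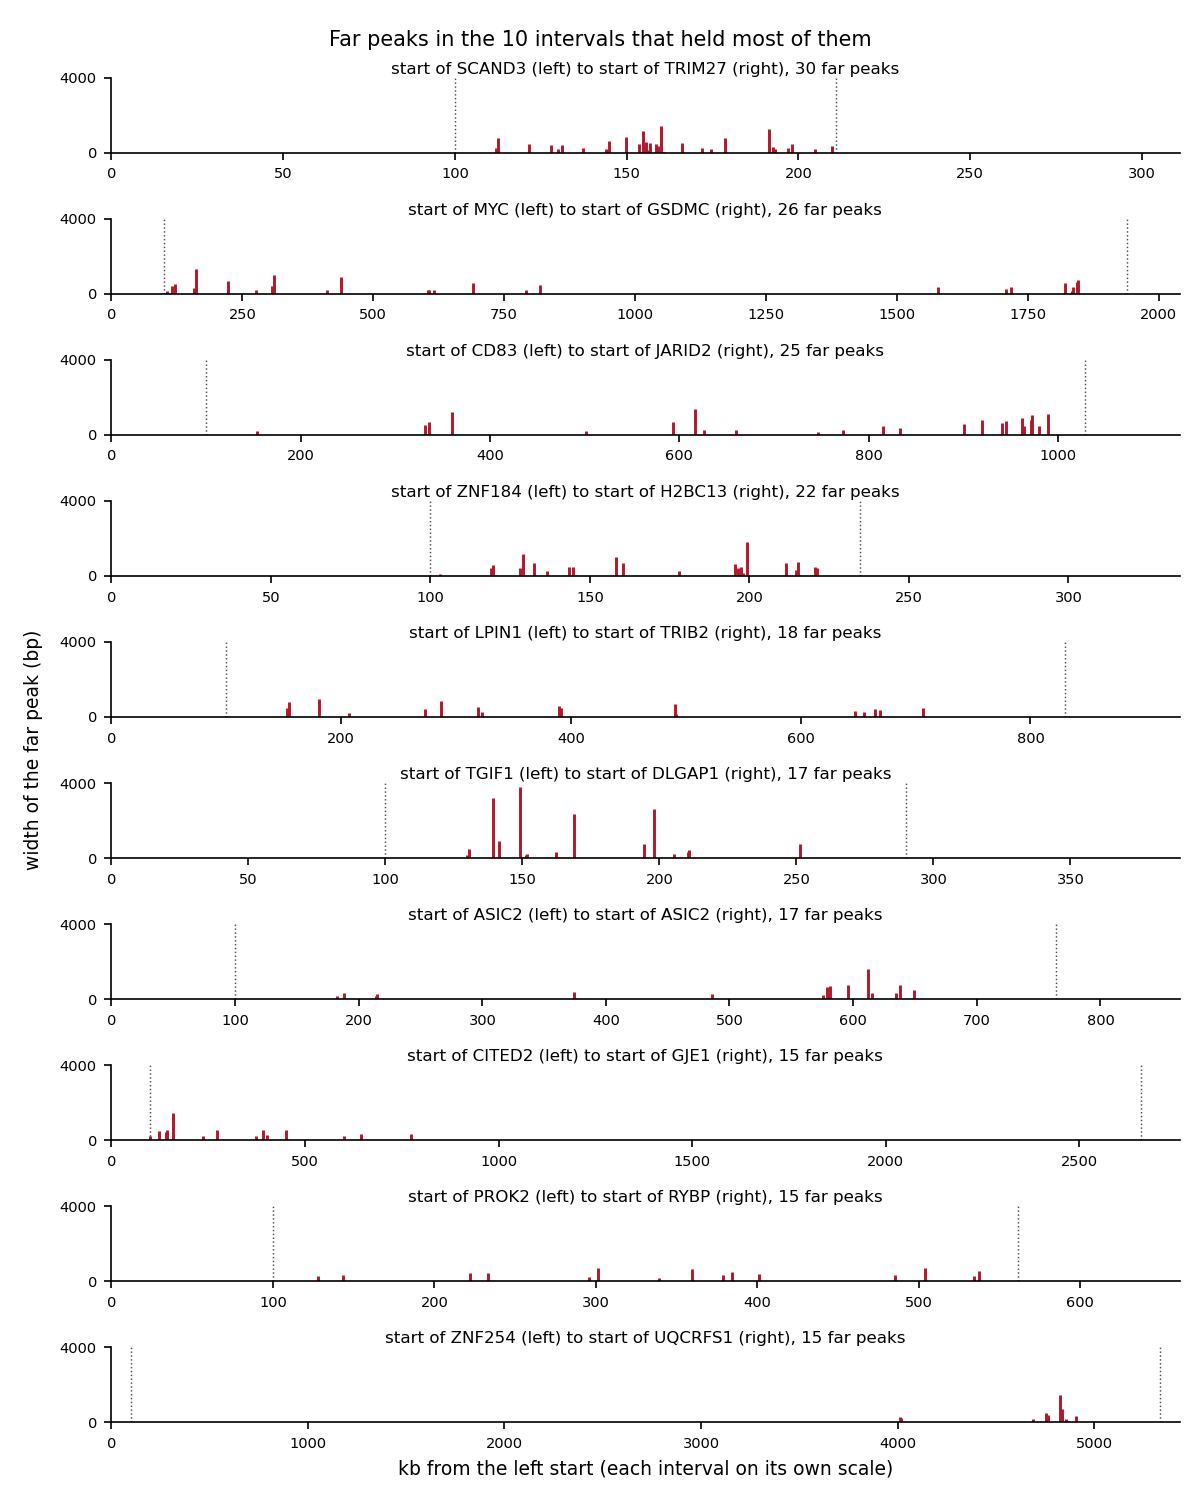
Far peaks in the 10 intervals that held most of them, each drawn from the left coding start to the right one in kb on its own scale; line height is peak width in bp, and dotted lines mark 100 kb from each start. SCAND3 to TRIM27 held 30 far peaks within 311 kb, while the 15 of ZNF254 to UQCRFS1 sat on the right of 5434 kb.

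Far peaks often came in groups, but near neighbours were not more frequent among them than among other peaks. Another peak of any kind lay within 12500 bp of 49.5% of far peaks. The share was 54.9% for peaks 10 to 100 kb from a coding start and 67.9% for all other peaks. This measure is tied to the distance rule, as described below. Another far peak lay within 12500 bp of 978 (48.7%, 46.5 to 50.9%), within 5 kb of 34.1% and within 50 kb of 69.0%. Linking far peaks at most 12500 bp apart gave 1387 groups, of which 1030 were single peaks, 305 held 2 or 3 and 52 held 4 or more, together 299 peaks. Each listed region counted as 1 peak, however short, and the shortest far peak was 1 bp wide. The largest group was 23 peaks over 67.2 kb between SCAND3 and TRIM27. Next came 13 over 22.4 kb between ADGB (androglobin) and STXBP5 (tomosyn), also on chromosome 6, and 11 over 48.5 kb in DLGAP1. A group of 6 over 21.1 kb lay between the starts of MYB, a factor of blood progenitors, and AHI1, a ciliary gene. It fell within the body of AHI1, and 5 of its peaks carried GATA. Dense groups were thus found both in gene deserts and inside genes.

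Genes of several fixed lists flanked far peaks, and the counts have to be read against genes that could. Over all coding genes, 1286 of 19794 (6.50%, 6.16 to 6.85%) flanked an interval with a far peak, but 4189 genes stood beside an interval longer than 200 kb or flanked a far peak at a chromosome end, and among these the share was 30.7% (29.3 to 32.1%). Developmental transcription factors stand beside gene deserts as a rule: all 25 of the list did, and 13 flanked a far peak (52.0%, 33.5 to 70.0%). Among them NR2F2, a nuclear receptor of vessel and heart development, flanked 12 far peaks, SOX5 11, ZEB2 10 and SOX4 8; others were SOX2, SOX6, SATB1, MEIS2, IRX3, IRX5, LHX2 and SALL3. For ZEB2, a repressor also active in blood cells, the far peaks lay 161 to 1248 kb from its start, and 9 of 10 had a GATA motif. For SOX4, all 8 had GATA and 4 of them also had AP-1. SOX5 had GATA in 10 of 11, but NR2F2 had it in 6 of 12 and LHX2 in 0 of 2.

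Of 25 progenitor and leukaemia regulators, 8 flanked a far peak, out of 13 beside a long interval (61.5%, 35.5 to 82.3%). These were MYC with 27 over both its sides, MYB with 7, KIT, RUNX1 and MEIS1 with 3 each, and CCND2, CDK6 and BCR with 1 each. KIT, the receptor for stem cell factor, had its 3 far peaks 115 to 184 kb from a start, and RUNX1, a master factor of blood stem cells, had 3 at 156 to 456 kb. Of 20 genes of the TGF-beta, BMP, KLF and SMAD list, 9 flanked a far peak, out of 14 beside a long interval (64.3%, 38.8 to 83.7%): SMAD3, SMAD6, SMAD7, ID2, ID4, KLF4, KLF5, KLF6 and KLF10. SMAD3 and SMAD6, signal transducer and inhibitor, are neighbours and share the same 5 far peaks. KLF4, a zinc-finger factor, flanked 8, 6 of them with AP-1, at 218 to 666 kb. JUN, a subunit of AP-1, flanked 4 with GATA in all, and FOSL2 flanked 1, and no other of the 15 AP-1 and immediate early genes stood beside a long interval.

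The erythroid list gave the lowest count. Of 25 genes, 1 flanked a far peak, BCL11A, the repressor of fetal globin, with 3 peaks at least 1729 kb from its start. All 3 lay nearer to FANCL, at the other end of this interval of 2219 kb. Just 2 genes of that list stand beside a long interval, so the remainder could not have had a far peak. These shares were not tested and list members were not matched for interval length. Flanking genes were also looked up for a peak at their own start: 546 of 1286 (42.5%, 39.8 to 45.2%) had one within 1 kb, beside 920 of 2903 (31.7%, 30.0 to 33.4%) whose long intervals held no far peak. Where the interval held 5 or more far peaks the share was 108 of 204 (52.9%, 46.1 to 59.7%), beside the 46.4% of all coding genes. This comparison was chosen after values were seen and is given without a test.

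Lying far from a coding start does not mean lying outside a gene. Bodies of coding genes held 502 far peaks (25%, 23.2 to 26.9%), 485 in introns and 17 in exons, while such bodies made up 21.1% of the far genome. Another 698 (34.8%, 32.7 to 36.9%) lay in lncRNA genes alone, which made up 24.7% of the far genome, and 808 (40.2%, 38.1 to 42.4%) lay in neither, where 54.2% of the far genome lies. Per Mb this gave 2.16 peaks in coding bodies (1.98 to 2.36), 2.57 in lncRNA genes (2.38 to 2.76) and 1.35 outside both (1.26 to 1.45). Far peaks were thus sparsest outside annotated genes.

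Far peaks lay in the bodies of 224 coding genes, 113 of which held 1. Their median length was 366 kb, and the definition itself requires about 100 kb or more, since a far peak cannot lie nearer than that to its own gene's start. DLGAP1 and ASIC2 led with 17 each. GSE1 held 14, of which 7 had GATA, and KAZN, a protein linked to cell junctions, held 11. RASGEF1B, an exchange factor of small GTPases, COL25A1, a membrane collagen, and PTH2R, a hormone receptor, held 8 each. AHI1 held 7, of which 6 had GATA and 2 lay in exons. For ASIC2, RASGEF1B and COL25A1 the far peaks were all the peaks the gene body had. Far peaks inside coding bodies carried GATA in 73.7% (69.7 to 77.4%), against 64.4% of those outside (62.0 to 66.8%), and were CpG-rich in 2.79%, against 8.70%. This split was made after values were seen and was not tested.

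The extremes of distance lay in the large deserts of chromosomes 5, 21 and 11. The farthest peak, between NUDT12 and the ephrin ligand EFNA5, was 2030.4 kb from NUDT12 and farther still from EFNA5. The next were 3 peaks between NCAM2, an adhesion molecule, and MRPL39, a mitochondrial ribosomal protein, at 1798, 1717 and 1685 kb, and 1 between IFTAP and LRRC4C, a synaptic adhesion gene, at 1703 kb. Of these 5, 3 carried GATA and 1 AP-1, and their widths ran from 170 to 962 bp.

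The widest far peaks were concentrated in DLGAP1. Its introns held the 4 far peaks over 2000 bp, of 3793, 3219, 2640 and 2370 bp. The fifth, of 1968 bp, lay between MTCL1 and NDUFV2, also on chromosome 18. Of these 5, 4 lay within 1 kb of a lncRNA start, and none was CpG-rich.

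The peaks nearest to 100 kb show what the threshold separates. Just inside were peaks at 100333 bp (TSN to CNTNAP5, 188 bp wide), 100336 bp (CITED2 to GJE1, 207 bp) and 100366 bp (NDFIP1 to SPRY4, 284 bp). Just outside were peaks at 99973 bp (ANXA3 to BMP2K, 193 bp), 99835 bp (JUN to FGGY, 1225 bp) and 99770 bp (MTMR2 to MAML2, 621 bp). Their distances differ by less than 1 kb, and GATA motifs occurred on both sides.

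Far peaks had nearly the median width of other peaks away from promoters. Their median width was 347 bp (337 to 356 bp), with quartiles of 242 and 521 bp, against 349 bp (343 to 355 bp) at 10 to 100 kb and 370 bp (367 to 375 bp) over all other peaks. By class, 296 far peaks (14.7%) were under 200 bp, 1157 (57.6%) were from 200 to under 500 bp, 485 (24.2%) from 500 to under 1000 bp and 70 (3.49%) were 1000 bp or more. The share at least as wide as the median of the list, 368 bp, was 45.9% for far peaks and 46.6% at 10 to 100 kb, a difference of -0.771 points (-3.18 to 1.65; two-sided Fisher's exact test, adjusted p = 0.669). Against all other peaks, of which 50.5% were that wide, the difference was -4.60 points (-6.85 to -2.33; Fisher's exact test, adjusted p = 9.95e-05). Far peaks were thus narrower than the list as a whole, and no difference from peaks 10 to 100 kb away was detectable.

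Base composition differed from that of peaks 10 to 100 kb away. The central 200 bp of far peaks had a median GC of 45.5% (45 to 46%), above the 38.4% of the far genome around them and below the 47% (46.5 to 47%) of peaks 10 to 100 kb away. In the plot of density and GC by distance, the medians ran from 46% at 100 to 200 kb to 44% beyond 500 kb, where the genome itself falls to 36.4%. GC of at least 50% was found in 29.6% of far peaks and 38.2% of peaks at 10 to 100 kb, a difference of -8.61 points (-10.8 to -6.33; Fisher's exact test, adjusted p = 6.42e-12). Against peaks 50 to 100 kb away alone the difference was -3.73 points (-6.61 to -0.848; Fisher's exact test, adjusted p = 0.115), which did not pass.

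Families of 20 features were compared with Fisher's exact tests and Benjamini-Hochberg adjustment. Against peaks 10 to 100 kb away, 6 of 20 features passed an adjusted p of 0.05, 2 more and 4 less frequent in far peaks. The 2 more frequent were a lncRNA start within 1 kb and the GATA motif, which is GATAA or GATAG preceded by A or T, on either strand of the central 200 bp. The 4 less frequent were high GC, another peak of any kind within 12500 bp, the SP/KLF motif GGGCGG and the CTCF core. The neighbour call is not independent of the choice, because its comparison class begins at 10 kb, where promoters lie within the neighbour window. The plot of feature shares shows that most other features lay close together in the 2 classes. Most of these calls did not hold against the adjacent class alone. Against the 1966 peaks 50 to 100 kb away, a smaller comparison with wider intervals that was added after values were seen, 1 of 20 features passed, the lncRNA start, and the other 5 calls were lost.

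**Figure D3:**
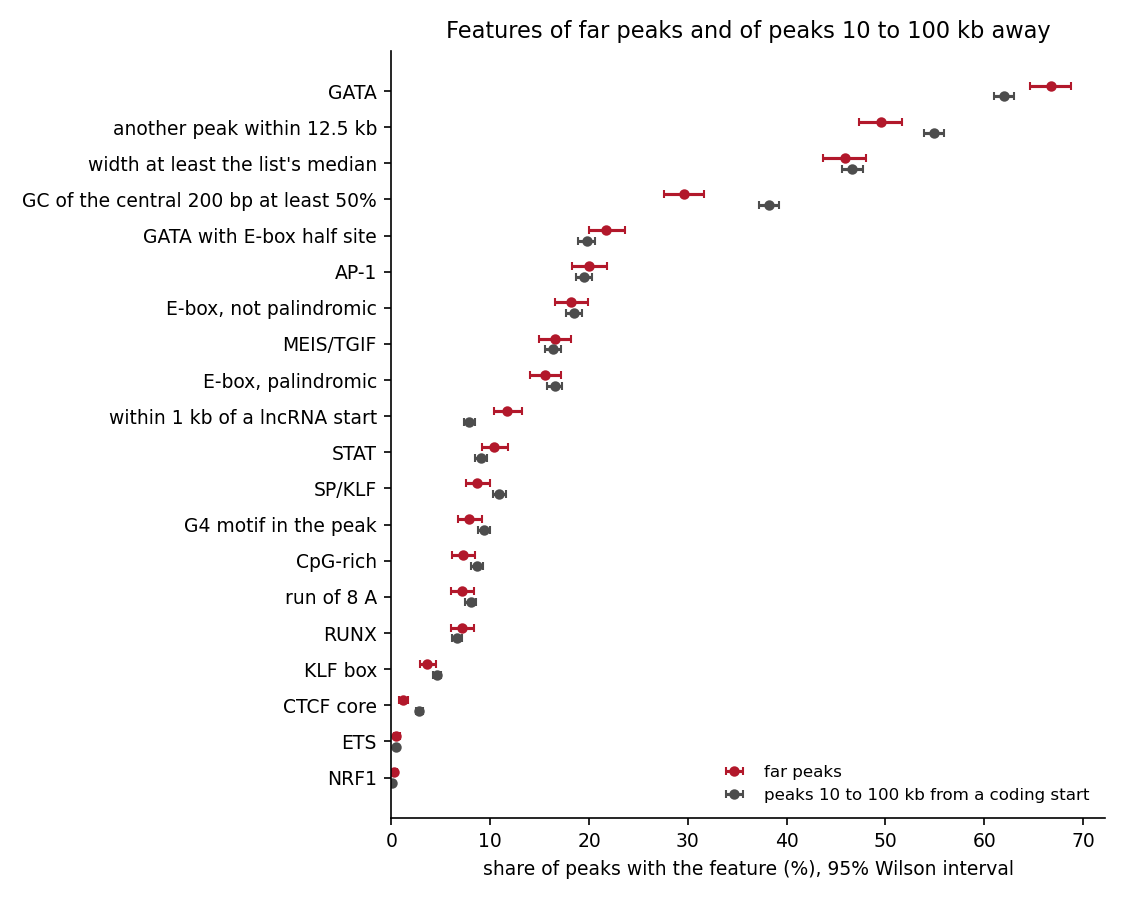
Share of far peaks (red) and of peaks 10 to 100 kb from a coding start (grey) with each of 20 features, with 95% Wilson intervals; the palindromic E-box is CAGCTG, the other CAGATG, and the KLF box is CCACACCC or CCACGCCC. GATA was in 66.7% of far peaks and 62.0% of the others, and a lncRNA start lay within 1 kb of 11.7% and 7.84%.

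GATA was the commonest motif of far peaks. It was present in 1340 (66.7%, 64.6 to 68.8%), against 62.0% at 10 to 100 kb, a difference of 4.76 points (2.44 to 7.03; Fisher's exact test, adjusted p = 0.000256). At 50 to 100 kb it was in 65.8%, above the 63.9% of far peaks at 100 to 200 kb, and the difference of far peaks from that class was 0.965 points (-1.97 to 3.90; Fisher's exact test, adjusted p = 0.836). Of the 5500628 windows of 200 bp in the far genome, 40.7% hold the motif, against 35.0% of windows at 10 to 100 kb. Far peaks exceeded their windows 1.64-fold and the nearer peaks exceeded theirs 1.77-fold. Within GC classes of 2 percentage points the odds ratio of GATA between far and nearer peaks was 1.08 (0.962 to 1.20), against 1.23 (1.11 to 1.36) without classes. A higher share of GATA was detectable neither among peaks of like GC nor against the adjacent class. The cause of the difference from peaks 10 to 100 kb away was not tested.

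The GATA motif with the E-box part CTG placed 7 to 9 bases upstream, the arrangement that GATA1 and TAL1 complexes are known to bind, was in 437 far peaks (21.8%, 20.01 to 23.6%). That was 8.95-fold its share in far windows, which was 2.43%. A gap of 8 bases was the commonest, in 259 far peaks, with 125 at 7 bases and 74 at 9. At 10 to 100 kb the composite was in 19.7% of peaks and 2.19% of windows, a similar fold, and the peaks gave a difference of 2.01 points (0.0681 to 4.05; Fisher's exact test, adjusted p = 0.0847). It did not pass the threshold.

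AP-1 (TGACTCA or TGAGTCA) was in 401 far peaks (19.97%, 18.3 to 21.8%), 6.55-fold its share in far windows. Peaks at 10 to 100 kb had it in 19.5%, and the difference was 0.497 points (-1.39 to 2.48; Fisher's exact test, adjusted p = 0.727). AP-1 was in 19.3% (17.3 to 21.5%) of far peaks with GATA and in 21.3% (18.3 to 24.5%) of those without. At 10 to 100 kb these shares were 17.7% (16.7 to 18.7%) and 22.4% (21.0 to 23.9%), and neither pair was tested. Counting both motifs, 259 far peaks (12.9%) had both, 1081 (53.8%) had GATA alone, 142 (7.07%) had AP-1 alone and 526 (26.2%, 24.3 to 28.2%) had neither.

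The 526 far peaks with neither motif were described by the same features, without a test. They were CpG-rich in 22.4% (19.1 to 26.2%), against 1.82% (1.26 to 2.64%) of the far peaks with either motif, where CpG-rich means GC of at least 50% and an observed over expected CpG of at least 0.6. A lncRNA start lay within 1 kb of 24.3% (20.9 to 28.2%), against 7.22% (6.01 to 8.65%), and a G4 motif was present in 14.8% (12.05 to 18.1%), against 5.40% (4.36 to 6.67%). Since GATA letters are AT-rich, a peak of high GC has fewer chances to hold them, and the part of GC in this contrast was not tested.

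GATA also varied with width and distance. It was in 55.7% of far peaks under 200 bp (50.05 to 61.3%), 71.3% from 200 to under 500 bp (68.6 to 73.8%), 66.2% from 500 to under 1000 bp (61.9 to 70.3%) and 41.4% at 1000 bp or more (30.6 to 53.1%). By distance it was in 63.9% at 100 to 200 kb (61.1 to 66.5%), 72.1% at 200 to 500 kb (68.2 to 75.7%) and 69.1% beyond 500 kb (62.7 to 74.8%). At 10 to 100 kb the shares by the same widths were 52.6%, 65.4%, 63.5% and 44.2%. In both classes peaks of middling width thus had GATA most often in the central 200 bp. That window covers only part of a wide peak and reaches beyond the edges of one under 200 bp. These are therefore not shares of whole peaks. More than 1 GATA motif was common: 432 far peaks had 2, 171 had 3 and 49 had at least 4.

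Motif positions were centred on the peaks. In bins of 50 bp, GATA was in 30.7% and 31.8% of far peaks on either side of the midpoint and in 10.01% and 10.6% at 450 to 500 bp to the left and right. AP-1 was in 6.08% and 7.12% beside the midpoint and in 0.697% and 1.10% at the left and right edges. At 10 to 100 kb GATA was in 26.9% (26.0 to 27.8%) on each side of the midpoint, below the intervals of far peaks (28.7 to 32.8% and 29.8 to 33.8%). The CTCF core rose less at the centre of far peaks than at 10 to 100 kb, and the curves themselves were not tested.

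**Figure D4:**
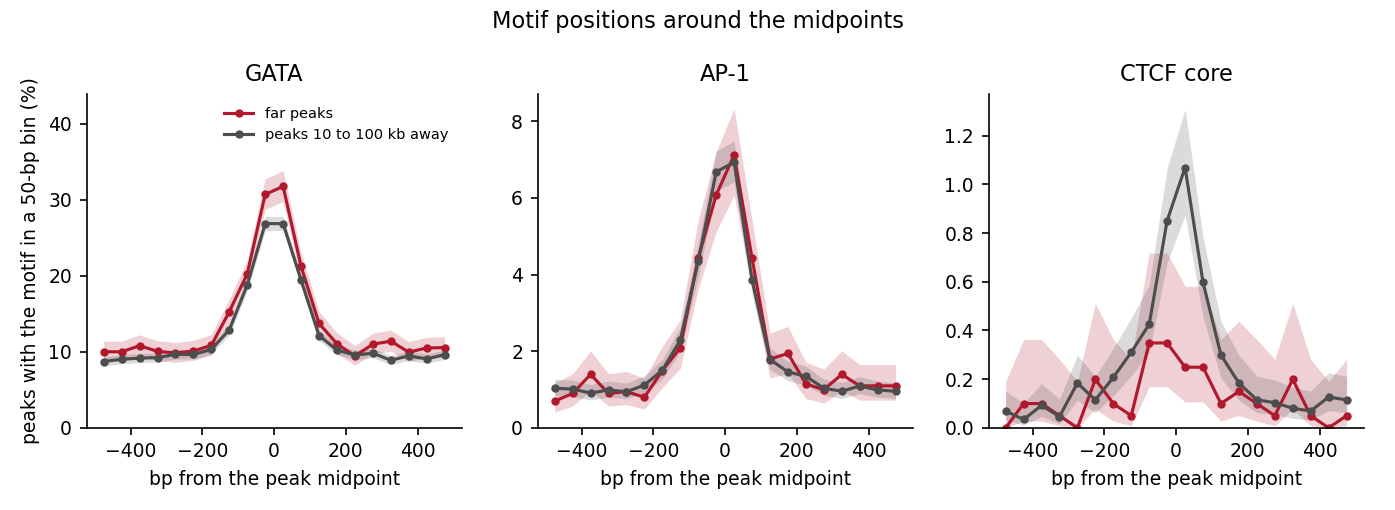
Share of peaks with GATA, AP-1 or the CTCF core in each bin of 50 bp, by distance in bp from the peak midpoint, for far peaks (red) and peaks 10 to 100 kb away (grey); shading is the 95% Wilson interval. GATA rose to 31.8% of far peaks beside the midpoint, and AP-1 to 7.12%.

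The CTCF core, part of the site of the insulator and loop-anchor protein CTCF, was rare in far peaks. It was in 23 (1.15%, 0.764 to 1.71%), against 242 of 8699 (2.78%) at 10 to 100 kb, a difference of -1.64 points (-2.17 to -0.982; Fisher's exact test, adjusted p = 3.21e-05). Within GC classes the odds ratio was 0.471 (0.305 to 0.727), and the cause of the lower share was not tested. At 50 to 100 kb it was in 1.93%, and the difference of -0.787 points (-1.59 to -0.0167) did not pass (Fisher's exact test, adjusted p = 0.208). The core was in 0.152% of far windows and in 0.233% of windows at 10 to 100 kb. Relative to windows far peaks stood at 7.55-fold and nearer peaks at 11.9-fold, and these ratios were not tested.

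GC-rich features were fewer in far peaks, but only SP/KLF passed the test among those below. SP/KLF was in 8.67% of far peaks and 10.9% at 10 to 100 kb, a difference of -2.21 points (-3.54 to -0.752; Fisher's exact test, adjusted p = 0.0105). Within GC classes its odds ratio was 1.01 (0.822 to 1.23), against 0.778 (0.656 to 0.921) without, and leaving out chromosome 6 the difference was -1.70 points with an adjusted p of 0.105 by Fisher's exact test. The lower share was not seen among peaks of like GC. It did not pass without chromosome 6, nor against peaks 50 to 100 kb away (-0.796 points, -2.59 to 0.992, adjusted p = 0.836 by Fisher's exact test). Its cause was not tested. G4 motifs, searched over the whole peak, need 4 runs of at least 3 G separated by 1 to 7 bases. CpG-rich peaks were 145 (7.22%), against 8.62%, and G4 motifs were in 158 (7.87%, 6.77 to 9.13%), against 9.35%. Their differences were -1.40 (-2.62 to -0.0572) and -1.48 points (-2.74 to -0.0847), each with an adjusted p of 0.0847 by Fisher's exact test, and did not pass. The CCACACCC or CCACGCCC box was in 3.59% against 4.60%, with the same adjusted p of 0.0847 (Fisher's exact).

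The other motifs did not separate the 2 classes. In far peaks STAT (TTCNNNGAA) was present in 10.4%, RUNX (TGTGGTT or TGCGGTT) in 7.12%, MEIS/TGIF (TGACAG) in 16.5%, CAGCTG in 15.5%, CAGATG in 18.2% and a run of 8 A in 7.12%. ETS (CCGGAAGT) was in 9 far peaks and NRF1 in 5. For STAT the difference was 1.37 points (-0.0326 to 2.90; Fisher's exact test, adjusted p = 0.101), the nearest to the threshold among these beside NRF1, with 5 far peaks against 6 of 8699 (adjusted p = 0.0847, Fisher's exact). A run of 8 A was less frequent than in far windows, at 0.692-fold, while CAGCTG stood at 2.63-fold. A motif match is letters in a window and not a bound site.

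The neighbour feature is tied to the distance rule. A peak 10 kb from a coding start can have a promoter peak within 12500 bp and a far peak cannot. How much this adds to the difference below was not tested. Another peak of any kind lay within 12500 bp of 49.5% (47.3 to 51.7%), against 54.9% at 10 to 100 kb, a difference of -5.41 points (-7.83 to -2.99; Fisher's exact test, adjusted p = 6.15e-05). Against peaks 50 to 100 kb away, which have no coding start within that window, it was 0.0106 points (-3.10 to 3.12; Fisher's exact test, adjusted p = 1). Far peaks were not found to stand alone more often than peaks 50 to 100 kb away.

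By number, not scaled by how many starts of each kind exist, lncRNA starts lay beside more far peaks than any other kind examined. A start lay within 1 kb of 235 far peaks (11.7%, 10.4 to 13.2%), against 7.84% at 10 to 100 kb, a difference of 3.86 points (2.41 to 5.44; Fisher's exact test, adjusted p = 7.80e-07). Against peaks 50 to 100 kb away it was 4.02 points (2.19 to 5.86, adjusted p = 0.000438 by Fisher's exact test). Over 13 settings the difference ranged from 1.83 to 4.57 points, past the threshold in each. The genome within 1 kb of such starts made up 1.34% of the far genome, and there the density was 16.0 peaks per Mb (14.0 to 18.2), against 1.63 (1.56 to 1.71) in the remainder. By the same measure lncRNA starts 10 to 100 kb from a coding start had 34.6 peaks per Mb (32.1 to 37.3). So the share was higher in far peaks while the density at the starts was lower. Of 4947 lncRNA genes with a far start, 217 (4.39%, 3.85 to 4.99%) had a peak within 1 kb of it, against 632 of 7886 (8.01%, 7.44 to 8.63%) at 10 to 100 kb. Most lncRNA genes in deserts thus had no SMARCA4 peak at their start.

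The 235 peaks belonged to 216 lncRNA genes, of which 170 had 1 far peak and 46 had 2 or more. Distances were short: 99 far peaks lay within 100 bp of a start and 143 within 250 bp. The lncRNA genes with wide peaks included DLGAP1-AS2 (3793 bp), DLGAP1-AS1 (3219 bp) and ENSG00000266401 (2640 bp), all within DLGAP1 and on the opposite strand. They also included ENSG00000287719 (1968 bp) and ENSG00000289851 (1892 bp), the latter between ADGB and STXBP5. Others were LINC01132 (1554 bp) beside IRF2BP2, a transcriptional corepressor, and ENSG00000287094 (1511 bp), whose peak lay in the body of AHI1. None of the peaks at these 7 genes was CpG-rich over its whole length. In the central 200 bp, a small part of such wide peaks, 3 held GATA and none held AP-1. The genes with most far peaks at their starts, chosen after their values were seen, included LINC00963 with 5 and PVT1 with 4.

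Far peaks at lncRNA starts were set beside the other far peaks, with CpG-rich sequence and SP/KLF sites as features known from promoters. They were CpG-rich in 28.1% (22.7 to 34.1%), against 4.46% (3.59 to 5.52%) of the other 1773. SP/KLF was in 27.2% (21.9 to 33.3%), against 6.20% (5.17 to 7.42%), and a G4 motif in 17.4% (13.1 to 22.8%), against 6.60% (5.53 to 7.85%). GATA went the other way, in 37.4% (31.5 to 43.8%), against 70.6% (68.5 to 72.7%). Median GC was 52% (49.5 to 54.5%), against 45% (44.5 to 45.5%), while median width was 347 bp in both. Wide peaks of 1000 bp or more were 8.51% (5.58 to 12.8%) at lncRNA starts, against 2.82% (2.15 to 3.70%). G4 motifs were searched over the whole peak, and the part of width in their share was not tested. This comparison among far peaks was chosen after values were seen and carries no test. Of other annotated starts within 1 kb, pseudogenes accounted for 39 far peaks, small RNA genes for 36 and non-coding transcripts of coding genes for 20. Neither a lncRNA start nor a start of these kinds lay within 1 kb of 1704 (84.9%, 83.2 to 86.4%).

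**Figure D5:**
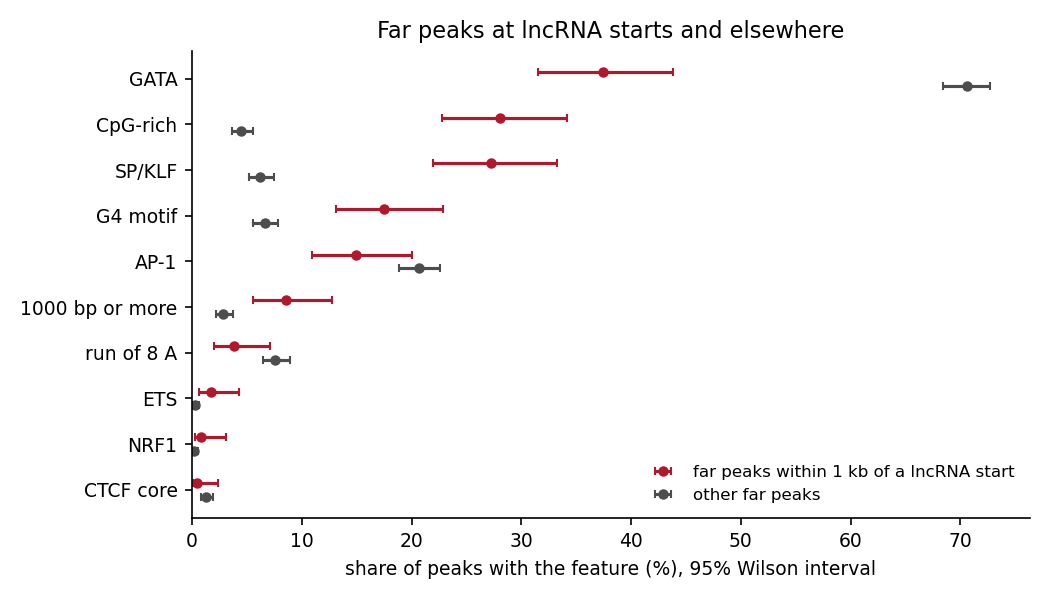
Share of far peaks with each feature, for the 235 within 1 kb of a lncRNA start (red) and the 1773 others (grey), with 95% Wilson intervals. CpG-rich peaks, SP/KLF and G4 motifs stood at higher shares at lncRNA starts, and GATA at a lower one, 37.4% against 70.6%.

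Against all 26257 other peaks, which are mostly at or near promoters, the far peaks differed in nearly every feature: 17 of 20 passed an adjusted p of 0.05, 7 more and 10 less frequent. CpG-rich peaks were 7.22% of far peaks and 40.02% of the others, a difference of -32.8 points (-34.0 to -31.5; Fisher's exact test, adjusted p = 7.22e-232). G4 motifs were in 7.87% and 24.5%, a difference of -16.7 points (-17.9 to -15.3; Fisher's exact test, adjusted p = 8.07e-79). GATA was in 66.7% and 38.2% (adjusted p = 3.35e-136, Fisher's exact), and AP-1 in 19.97% and 11.7% (adjusted p = 1.03e-23, Fisher's exact). A lncRNA start within 1 kb was here less frequent in far peaks, at 11.7% against 13.6% (adjusted p = 0.0158, Fisher's exact), the opposite direction from the comparison with peaks at 10 to 100 kb. This call was lost with a threshold of 200 kb (adjusted p = 0.440, Fisher's exact), with starts of every transcript of a coding gene (0.304) and with merged peaks (0.0551). The features that did not pass were CAGCTG, NRF1 and the run of 8 A.

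Far peaks lay in sequence that short reads can place. Of stretches of 75 bases taken every 25 bases, 99.2% on average occurred once in hg19, and 1923 far peaks (95.8%, 94.8 to 96.6%) were unique throughout, against 96.3% (95.9 to 96.7%) at 10 to 100 kb. Under 50% unique were 4 far peaks. The B box of tRNA gene promoters, searched by name and added after values were seen, was in 10 far peaks (0.498%, 0.271 to 0.914%), beside 0.402% (0.289 to 0.559%) at 10 to 100 kb and 0.354% (0.289 to 0.434%) in all other peaks. Of the 10, 6 lay between SCAND3 and TRIM27, 3 between ZNF184 and H2BC13 and 1 on another chromosome. All 10 lacked both GATA and AP-1.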

How the data were processed

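SMARCA4 ChIP-seq of K562 was analysed from the deposited list that pools 3 ChIP libraries, with inputs entering only through the authors' peak calling: 3 input libraries are listed, while the labels speak of a single input. The authors used cutadapt to trim reads, BWA to align to hg19, and Picard and SAMtools against duplicates, called peaks per replicate with MACS2 at a q-value threshold, and kept regions of at least 2 of 3 replicates with bedtools. The deposited starts and ends are in bp, with no score and no depth.

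Distances ran from peak midpoints to the starts of 89204 protein-coding transcripts (GENCODE 44 lifted to hg19). The members, lists and features were chosen with earlier results of these data known. Shares carry 95% Wilson intervals, differences Newcombe intervals and the p of a two-sided Fisher's exact test, adjusted by Benjamini-Hochberg over the 20 features of each family; densities carry exact Poisson intervals and medians order-statistic intervals. Named genes are those flanking the 10 leading intervals, the 5 farthest and the 5 widest far peaks, 8 lncRNA genes, 8 host genes and the members of fixed lists, and a few of these are not named in the text. Outside that rule, genes are named beside the 3 peaks nearest to the threshold on each side, the largest groups, and further intervals and lncRNA starts chosen after values were seen. Motifs were searched on both strands of the central 200 bp, except the G4 motif, which was searched over the whole peak. A wider peak thus offers more bases for a G4 match. The repeat share was left out because the reference is not soft-masked. Alternatives were other distances, start sets, widths, windows, merging and GC classes; the B box, the splits among far peaks the omission of chromosome 6 and the comparison with peaks 50 to 100 kb away were added after values were seen. The code was tested on simulated data. Tools were Python 3.11.15, numpy 2.4.6, pandas 2.3.3, scipy 1.17.1 and matplotlib 3.10.9.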

Additional observations from a re-analysis of the deposited data

How the results depend on the processing

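The list gives regions without height, depth or values per replicate, so precision is set by the number of regions alone, and differences in binding strength between far and nearer peaks were not detectable. No paired analysis was possible because the list pools the replicates and holds no value per replicate, and for the same reason leaving out each replicate could not be done. Regions close together are not independent. Shares of motifs depend on GC, and copy number and the share of repeats were not tested.

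Of 251 differences from peaks 10 to 100 kb away, recomputed under 16 settings, 198 kept their direction and side of the threshold, 5 were lost, 24 were gained and 24 changed sign. Of the 6 that passed, lncRNA starts alone did so in every setting, 13 of 13. Against peaks 50 to 100 kb away, a setting added after values were seen, 1 of 20 features passed: lncRNA starts (4.02) stayed, GC (-3.73), GATA (0.965), SP/KLF (-0.796) and the CTCF core (-0.787) were lost, and neighbours (0.0106), CpG-rich (0.0492), AP-1 (-0.834), RUNX (-0.0504), ETS (0.194), MEIS/TGIF (-2.03) and G4 (0.239) changed sign. Of all sign changes, neighbours were the only feature that passed in the main setting, and in the other 10 settings their comparison class begins at 10 kb, where promoters lie within the neighbour window. Over all settings GATA ranged from 0.965 to 9.02 points, lncRNA starts from 1.83 to 4.57 and the CTCF core from -2.33 to -0.787. SP/KLF passed in 11 of 13, with adjusted p from 6.18e-05 to 0.836 (Fisher's exact test); it was also lost without chromosome 6 (-1.70 points), where far peaks were 6.70% of the list.

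Differences below are in points, far minus nearer peaks, and the cause of each change was not tested unless stated. With a threshold of 50 kb there were 3974 far peaks (14.1%) at 2.62 per Mb, 32.6% in coding bodies and 9.71% at lncRNA starts. Then 10 features passed, with CpG-rich (-1.85), the GATA and E-box pair (2.33), MEIS/TGIF (1.87) and G4 (-2.10) gained, and width (0.375) and CAGATG (0.163) changed sign. With 200 kb there were 782 far peaks (2.77%) at 1.09 per Mb, 14.8% in coding bodies, 44.8% with another far peak nearby and 5.75% with G4. Here 10 features passed, with CpG-rich (-2.81), the pair (5.19), NRF1 (0.441) and G4 (-3.58) gained, and AP-1 (-0.277), CAGATG (1.24), RUNX (-0.643), ETS (0.176) and MEIS/TGIF (-0.960) changed sign. Against all other peaks NRF1 (0.00938) and the run of 8 A (-0.145) did so too.

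With starts of every transcript of a coding gene, far peaks were 5.58% of the list and 13.0% of them lay in coding bodies, NRF1 (0.265) was gained, and CAGATG (0.680), RUNX (-0.230), ETS (0.0737) and MEIS/TGIF (-0.0343) changed sign. With the GENCODE basic set the shares were 8.34% and 32.7%, 11 features passed, CpG-rich (-2.53), the pair (2.79), STAT (1.85), the CACCC box (-1.30) and G4 (-1.82) were gained, and CAGATG (0.198) changed sign. Merging peaks gave 7.62% far, a median width of 365 bp and 40.4% with another far peak nearby, gained CpG-rich (-1.91), and turned CAGATG (0.0147) and ETS (0.0960). Merging itself removes near neighbours and widens peaks. Peaks of at least 200 bp had a median width of 388 bp, which the filter itself raises, 45.9% had another far peak nearby, and MEIS/TGIF (-0.0390) changed sign. Without peaks near assembly gaps, G4 was in 6.68%, and CpG-rich (-2.06), the pair (2.44) and G4 (-2.23) were gained. Distances from peak edges and autosomes alone changed none of these calls.

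In the central 400 bp 10 features passed, with CAGCTG (-2.94), STAT (2.59), the CACCC box (-2.38) and the run of 8 A (-2.10) gained, CAGATG (0.440) changing sign and CAGCTG against all other peaks at -0.465. In whole peaks the CACCC box (-2.46) was gained, CAGATG (0.858) changed sign and CAGCTG against all other peaks stood at -1.15. Loops of up to 12 bases put G4 in 13.6% of far peaks and its difference at -2.87, gained. Within GC classes the odds ratios of GATA (1.08), the pair (1.06) and the CACCC box (0.864) had intervals that reached 1, that of the run of 8 A (0.795) no longer did, and ETS (1.07), MEIS/TGIF (0.991) and SP/KLF (1.01) changed sides. A lncRNA start within 5 kb was found for 20.1%, a start of any transcript that is not protein-coding within 1 kb for 15.2%, and another far peak within 5 kb for 34.1% and within 50 kb for 69.0%. Against all other peaks, 215 of 231 differences kept direction and side, 4 were lost, among them the lncRNA start in 3 settings and RUNX in 1, 8 were gained and 4 changed sign.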

Other observations

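A few further intervals with 10 or more far peaks are given here as examples, chosen after their values were seen. BAMBI, a decoy receptor of the BMP and TGF-beta pathway, and LYZL1 flanked 12 far peaks in 612 kb, 9 of them with GATA. The interval from TBC1D1 to KLF3, a repressor of the KLF family in erythroid cells, held 11 in 618 kb, 7 with GATA. IRF2BP2 and TOMM20, a subunit of the mitochondrial import receptor, flanked 13 in 546 kb with a median width of 617 bp, and the GATA and E-box pair shown by sequence comes from there. The interval from IER5L to NTMT1 differed in make: of its 10 far peaks 6 were CpG-rich, 6 held a G4 motif, 6 lay at a lncRNA start and 1 held GATA, with a median GC of 71%.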
